A study of Mus musculus with 2 samples.

Results

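Interferons are secreted cytokines that cells release when they sense viral or misplaced nucleic acid. Type I interferons bind the receptor chains IFNAR1 and IFNAR2, and interferon-gamma binds IFNGR1 and IFNGR2. Receptor-bound JAK kinases then phosphorylate STAT proteins. STAT2 and IRF9 are parts of the complex ISGF3, which binds the interferon-stimulated response element (ISRE), whereas STAT dimers bind the gamma-activated site (GAS). IRF3 and IRF7 act at the other end of the pathway, where they switch on the interferon genes, and IRF1 is itself an interferon-induced activator. STAT2, IRF3 and the kinases are controlled largely by phosphorylation, which RNA levels do not show. In fat, both the adipocytes and the macrophages and progenitors around them respond to interferons.

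Expression was compared for 9 genes of this pathway, chosen by name from 24091 genes. They were the receptor genes Ifnar1, Ifnar2, Ifngr1 and Ifngr2 and the transcription factor genes Stat2, Irf1, Irf7, Irf9 and Irf3. All 9 were found. The data comprised 2 libraries of polyadenylated RNA from C57BL/6 mice, 1 labelled no radiation (sham irradiated) and 1 labelled radiation, which received pelvic irradiation given in the labels as 7.5 Gy and 5 days without saying if this was daily or total. In both groups, gonadal fat was taken 2 months after radiation, and the floating cells of the collagenase digest were cultured for 3 days. Both sample titles also name PBS, with no word on its role, and the sources used here do not give the age, sex or number of the mice. Since each condition had a single library, the conditions could not be tested against each other, and every difference given compares those libraries, not the conditions.

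Values are FPKM, that is, fragments per kilobase of gene per 1000000 fragments, which allows genes to be compared per length. A difference is the sham value subtracted from the irradiated value, both as deposited log2(FPKM + 0.1), and a difference of at least 0.5 (1.41-fold) was called. The recovered depths were 30600000 fragments in the sham library and 35000000 in the irradiated library. The differences of the 9 genes, and some others, are given with the exact 95% binomial interval of the ratio of fragments, on the log2 scale. This interval covers counting error only and not variation between mice or cultures. The deposited values were rounded, which can move a difference by up to 0.01. A total of 11253 genes reached an FPKM of 1 in either library, the 9 among them, and over these the median difference was 0.02 and the 5th to 95th percentiles were -0.27 to 0.46. The material is labelled primary adipocytes, but 8 of 10 adipocyte markers stayed below an FPKM of 1 in either library. Adipoq, the adipocyte hormone adiponectin, had 5 and 10 fragments, whereas the collagen gene Col1a1 had an FPKM of 1937 and 1428. In such a mixed culture, fewer cells of a type and less RNA per cell cannot be told apart.

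All 5 factor genes were higher in the irradiated library, with a median difference of 0.24, and Irf7 and Stat2 stood highest. Of the 4 receptor genes, 3 were lower and 1 was higher, with a median of -0.12. Whether receptors and factors differed from each other could not be tested. Over all 9 genes, 6 were higher, and 3 were lower, where 53.5% and 44.0% of all genes that passed the filter were higher and lower, and the median was 0.16. Irf7 alone reached the size called, 1 of 9 genes, as did 5.75% of all genes in either direction (4.31% on the higher side and 1.44% on the lower). None of the 9 reached a difference of 1, which 1.16% of all genes did. The counting interval lay above 0 for 5 of the 9 genes and below 0 for 2, compared with 23.8% and 17.5% of all genes. The shares of all genes show that an interval that leaves out 0 was common between these libraries.

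**Figure D1:**
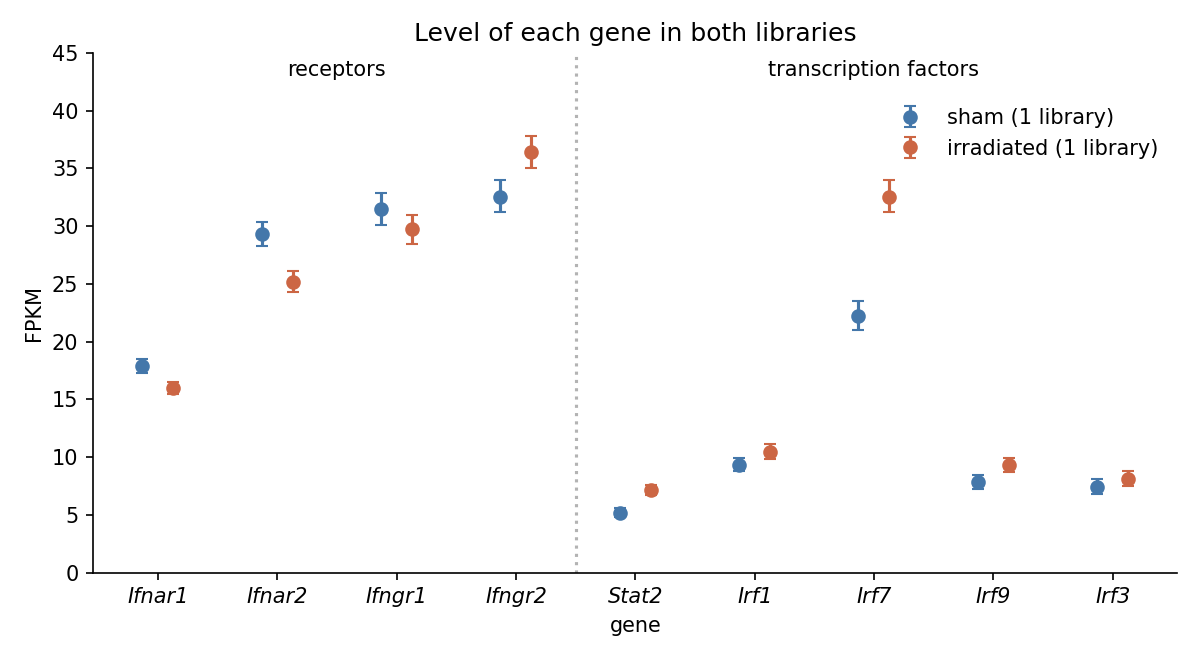
FPKM (vertical axis) of the 4 receptor and 5 transcription factor genes (horizontal axis) in the sham library (blue) and the irradiated library (orange), 1 library each, with exact 95% Poisson intervals of the fragment counts as bars. Irf7 sits at 22.2 in the sham library and 32.6 in the irradiated library, while the receptor genes stay between 16.0 and 36.4.

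Irf7, the factor that drives the later wave of type I interferon genes, lies on chromosome 7 from 141263183 to 141266424, on the minus strand of mm10. It had an FPKM of 22.2 in the sham library and 32.6 in the irradiated library, from 1257 and 2108 fragments. The difference was 0.55 (interval 0.45 to 0.65), or 46.6% more FPKM. A difference at least as high was seen in 3.54% of the 11253 genes and in 1.87% of the 7538 genes whose FPKM reached 5 in either library. Irf7 was also the most abundant of the 5 factor genes. It made up 42.7% of their summed FPKM in the sham library and 48.2% in the irradiated library, and 66.4% of the increase of that sum from 52.0 to 67.6.

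Stat2, the subunit of ISGF3 that carries its activating domain, lies on chromosome 10 from 128270576 to 128292849. Its FPKM was 5.18 in the sham library and 7.16 in the irradiated library, on 694 and 1097 fragments. The difference of 0.46 (interval 0.33 to 0.61) fell just short of the size called, and 5.29% of all genes had one at least as high. Stat2 had the lowest level of the 9 genes in both libraries. The counting intervals of the Irf7 and Stat2 differences overlapped, so their order was not detectable at this depth.

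Irf9, which gives ISGF3 its DNA contact, had an FPKM of 7.84 and 9.28 in the sham and irradiated libraries, from 643 and 870 fragments. The gene lies on chromosome 14 from 55603985 to 55610030. Its difference was 0.24 (interval 0.094 to 0.39), and 14.7% of all genes had one at least as high. The ratio of Irf9 to Stat2 was 1.52 in the sham library and 1.30 in the irradiated library. Both genes were higher in the irradiated library, and the counting intervals of their differences overlapped.

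Irf1, an early activator that interferons induce, lies on chromosome 11 from 53770014 to 53778374. It had an FPKM of 9.35 in the sham library and 10.5 in the irradiated library, from 958 and 1225 fragments, with a difference of 0.16 (interval 0.038 to 0.28). Irf3, the constitutive sensor-activated factor, lies on chromosome 7 from 44997648 to 45002848. It had 7.42 and 8.12, from 495 and 620 fragments, and the interval of its difference of 0.13 ran from -0.042 to 0.30, so no difference was detectable for Irf3 at this depth. The ratio of Irf7 to Irf3 was 3.00 in the sham library and 4.01 in the irradiated library. Irf3 shares 1065 bases of its span with Bcl2l12 on the other strand, which had 169 and 202 fragments, and the sources used here do not say if strand was used in counting.

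**Figure D2:**
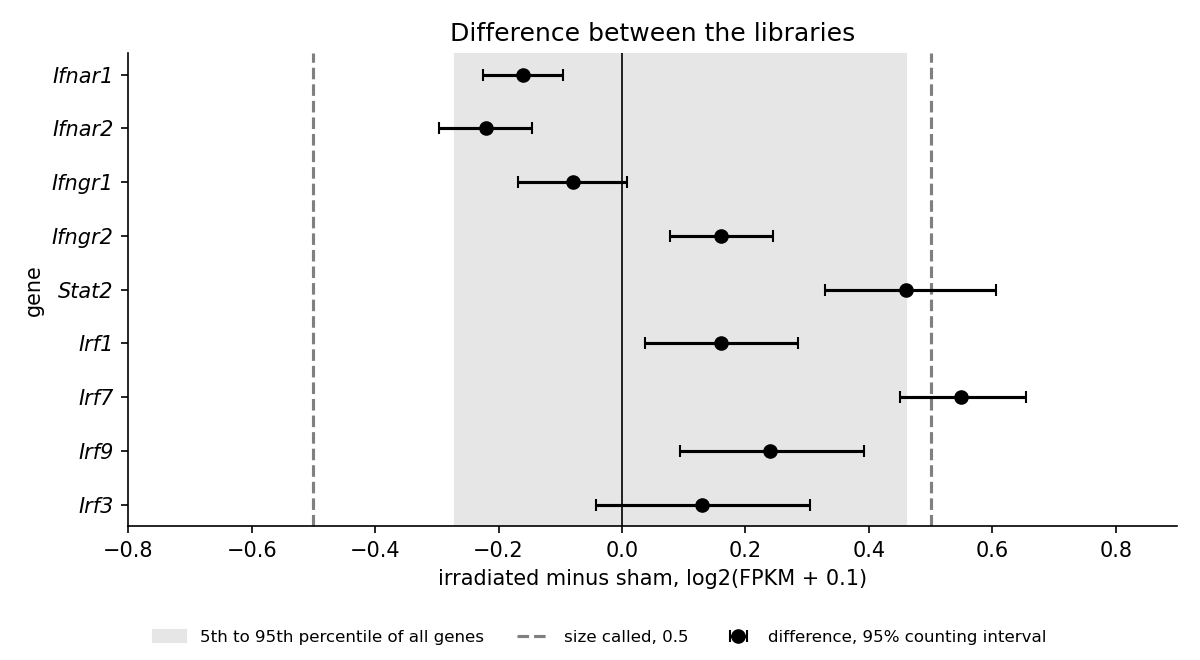
Difference between the libraries on the log2(FPKM + 0.1) scale (horizontal axis) for each gene (vertical axis), with 95% counting intervals as bars. The grey band is the 5th to 95th percentile of all 11253 genes, -0.27 to 0.46, and the dashed lines mark the size called, which only Irf7, at 0.55, exceeded.

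Ifnar1 and Ifnar2 encode the chains of the type I interferon receptor, and both were lower in the irradiated library. Ifnar1 had an FPKM of 17.9 in the sham library and 16.0 in the irradiated library, from 3868 and 3958 fragments, a difference of -0.16 (interval -0.22 to -0.096). Ifnar2 had 29.4 and 25.2, from 2843 and 2790 fragments, a difference of -0.22 (interval -0.30 to -0.15). These correspond to FPKM lower by 10.6% and 14.2%. The ratio of Ifnar2 to Ifnar1 moved little, from 1.64 to 1.57. A difference of -0.22 or lower was seen in 7.68% of all genes, and one of -0.16 or lower in 12.6%.

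Ifngr1 and Ifngr2 encode the ligand-binding and the signalling chain of the interferon-gamma receptor, and their differences had opposite signs. Ifngr1 lies on chromosome 10 from 19591958 to 19610225. Its FPKM was 31.5 in the sham library and 29.8 in the irradiated library, from 2014 and 2179 fragments. Its difference of -0.08 had an interval of -0.17 to 0.0079, so none was detectable at this depth. Ifngr2 had 32.6 and 36.4, from 2056 and 2629 fragments, and its difference was 0.16 (interval 0.077 to 0.24). The ratio of Ifngr2 to Ifngr1 was 1.04 in the sham library and 1.22 in the irradiated library.

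A shared feature of 3 of the receptor genes is their position. Ifnar2 (from 91372783 to 91405587), Ifnar1 (from 91485215 to 91510522) and Ifngr2 (from 91547094 to 91564007) lie on the plus strand of chromosome 16, within 191.2 kb. The same stretch holds Il10rb, which encodes a chain shared by the interferon-lambda and interleukin-10 receptors. Il10rb had an FPKM of 19.1 and 22.1, a difference of 0.21 (interval 0.12 to 0.31). Neighbours in this cluster therefore differed in direction, with Ifnar2 and Ifnar1 lower and Il10rb and Ifngr2 higher. Ifnlr1, which encodes the specific chain for interferon-lambda, had 9 and 15 fragments and did not reach an FPKM of 1.

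The order of the 9 genes by level changed at 1 place. In the sham library it ran from Ifngr2 (32.6), Ifngr1 (31.5) and Ifnar2 (29.4) through Irf7 (22.2) and Ifnar1 (17.9) to Irf1, Irf9, Irf3 and Stat2. Exact Poisson intervals of neighbours overlapped between Ifngr2 and Ifngr1, between Ifngr1 and Ifnar2, and between Irf9 and Irf3. In the irradiated library Irf7, at 32.6 (Poisson interval 31.2 to 34.0), stood in place 2 rather than 4, above Ifngr1 and Ifnar2, while the other 8 genes kept their order among themselves. There, neighbours overlapped only among Irf1, Irf9, Irf3 and Stat2.

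**Figure D3:**
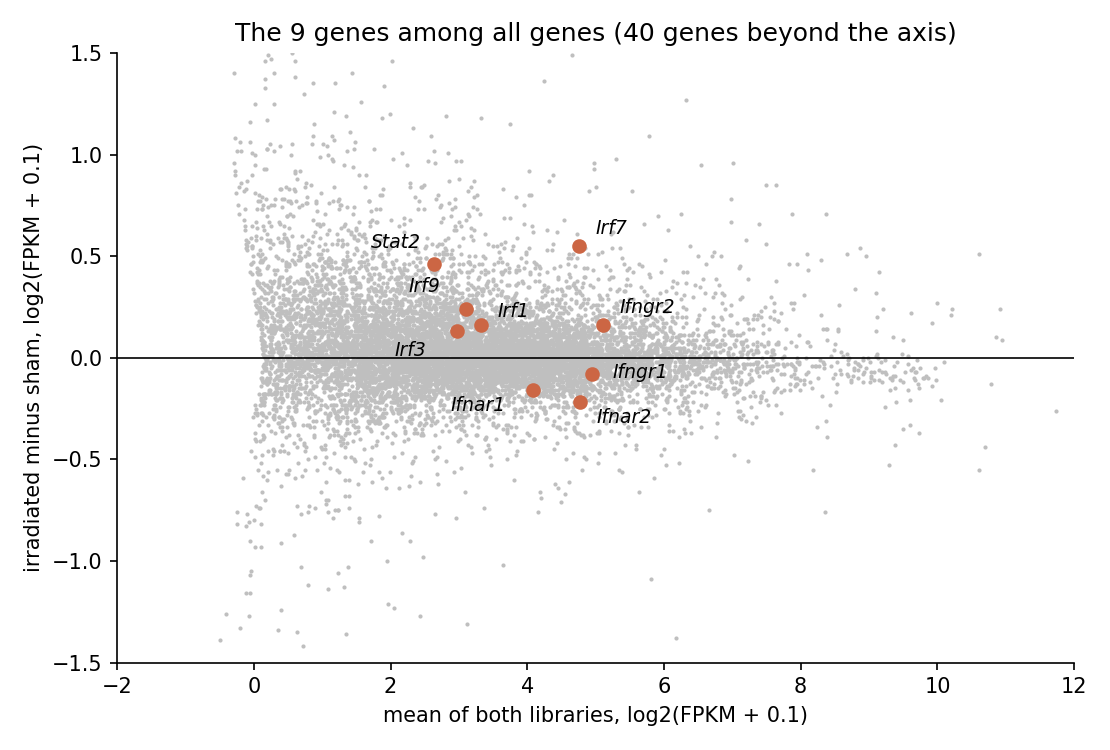
Difference between the libraries (vertical axis) against the mean of both libraries (horizontal axis), both on the log2(FPKM + 0.1) scale, for the 11253 genes that passed the filter (grey) and the 9 genes (orange), with 40 genes beyond the vertical axis. Irf7 lies at 0.55, a value that 3.54% of all genes reached, and the receptor genes lie between -0.22 and 0.16.

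The RefSeq promoter windows (GRCm38.p6) of the 9 genes were also read for the ISRE and the GAS. The window is the 250 bases before the annotated start, and for Irf1 and Irf9 a further start was also read. The ISRE was searched as GAAANNGAAA on both strands and the GAS as TTCNNNGAA, which reads the same on both strands. No window of the 9 genes held both elements, so their matches could not overlap. An ISRE was found for 1 of the 9 genes, Stat2, and a GAS for 2, Irf1 and Ifnar2, where 3.46% and 8.13% of 27025 genes had a match. The window of Irf7, the gene with the highest difference, held neither, which says only that these letters are not in this window. The 4 windows are shown 5′ to 3′ on the strand of the gene, with matches in capitals.
Stat2 (chr10:128270248-128270497, plus strand): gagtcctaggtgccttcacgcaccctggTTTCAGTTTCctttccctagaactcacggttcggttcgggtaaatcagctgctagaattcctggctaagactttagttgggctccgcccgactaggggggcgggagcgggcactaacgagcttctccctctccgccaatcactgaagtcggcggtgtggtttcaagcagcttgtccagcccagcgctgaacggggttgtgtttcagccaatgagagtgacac
Irf1 (chr11:53769764-53770013, plus strand): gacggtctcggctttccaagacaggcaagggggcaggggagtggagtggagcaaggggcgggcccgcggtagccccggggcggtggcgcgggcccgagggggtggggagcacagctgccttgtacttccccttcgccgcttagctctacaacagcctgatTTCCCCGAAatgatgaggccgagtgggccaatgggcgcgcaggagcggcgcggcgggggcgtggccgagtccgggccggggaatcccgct
Ifnar2 (chr16:91372533-91372782, plus strand): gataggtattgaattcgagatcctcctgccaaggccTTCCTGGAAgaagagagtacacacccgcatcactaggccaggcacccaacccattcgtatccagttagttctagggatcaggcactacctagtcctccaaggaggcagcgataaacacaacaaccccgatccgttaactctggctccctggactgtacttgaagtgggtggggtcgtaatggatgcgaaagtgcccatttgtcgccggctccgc
Irf7 (chr7:141266425-141266674, minus strand): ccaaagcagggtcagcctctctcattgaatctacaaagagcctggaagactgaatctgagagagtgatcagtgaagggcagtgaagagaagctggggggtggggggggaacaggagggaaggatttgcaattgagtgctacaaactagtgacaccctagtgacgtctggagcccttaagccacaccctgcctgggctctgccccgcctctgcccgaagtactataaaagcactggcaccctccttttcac
The Stat2 match begins 222 bases before the RefSeq start, which lies 78 bases upstream of the gene start in the deposited table. The Irf1 match begins 90 bases before the start, and that of Ifnar2 begins 214 bases before it. Irf1 and Ifnar2, both with a GAS match, differed in opposite directions, by 0.16 and -0.22.

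The interferon genes themselves were hardly detected. Of 19 interferon genes listed (Ifnb1, 13 Ifna genes, Ifne, Ifnk, Ifng, Ifnl2 and Ifnl3), 18 were at 0 in both libraries. Ifnb1 had 0 fragments in the sham library and 1 in the irradiated library. A gene of 1 kb at 0 could have had an FPKM of up to 0.0980 in the sham library and 0.0857 in the irradiated library, the level of 3 fragments. The Ifna genes span less than 1 kb, so their limits were higher. No difference in interferon RNA was therefore detectable at this depth.

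Of the 4 kinase genes below the receptors, 3 passed the filter. Jak2 was the one that reached the size called, as did 5.75% of all genes in either direction. Jak2, the kinase of the IFNGR2 chain, had an FPKM of 78.2 in the sham library and 54.1 in the irradiated library, from 12029 and 9523 fragments, a difference of -0.53 (interval -0.57 to -0.49). Jak1, which serves both receptors, had 116.1 and 108.3, a difference of -0.10. Tyk2, the partner of IFNAR1, had 2.47 and 2.71, and the interval of its difference of 0.13 ran from -0.051 to 0.32. Jak3, which serves other cytokine receptors, did not reach an FPKM of 1. The ratio of Jak1 to Jak2 was thus 1.49 in the sham library and 2.00 in the irradiated library.

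The 8 listed kinases and adaptors that activate IRF3 and IRF7 differed little. None reached the size called, which 5.75% of all genes did in either direction. Their median difference was 0.015, and they ranged from -0.16 for Ikbke to 0.08 for Tbk1 and Irak1. Tbk1, the main kinase of IRF3, had an FPKM of 17.3 and 18.3. All 8 counting intervals included 0.

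Among 9 other STAT and IRF genes, 7 passed the filter, 4 of them higher and 3 lower, with a median of 0.03. Irf8, a factor of macrophages and dendritic cells, was the only one to reach the size called, which 5.75% of all genes did. It had an FPKM of 1.07 and 1.59 and a difference of 0.53 (interval 0.33 to 0.82), or 0.32 with a pseudocount of 1. Irf5, also typical of macrophages, had 6.82 and 8.59, a difference of 0.33. Irf2, which competes with IRF1 for the same sites, had 9.55 and 8.96, and its counting interval included 0. Among those that passed, the lowest difference was that of Stat5a, at -0.20. Stat4 and Irf4 did not reach an FPKM of 1 in either library. Stat4, a lymphocyte factor, had 60 and 40 fragments and a difference of -0.63 (interval -1.39 to -0.18), and Irf4 had -0.24.

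Inhibitors of the pathway went both ways. Of 19 listed, 18 passed the filter, with 3 higher and 1 lower by at least 0.5 and a median of 0.025. Over all genes that passed the filter, 4.31% were higher and 1.44% lower by at least 0.5. Usp18, an interferon-induced protein that blocks IFNAR2 signalling, had an FPKM of 3.51 and 6.44, a difference of 0.86 (interval 0.62 to 1.13). Trim21, a ubiquitin ligase that acts on IRF proteins, had a difference of 0.54, from 2.23 and 3.29, and Cish, a relative of the SOCS inhibitors, had 0.60, from 0.729 and 1.16. Socs1, which blocks JAK kinases, had 2.71 and 1.82 on 111 and 85 fragments, a difference of -0.55 (interval -1.004 to -0.16). Socs3 was also lower, by a difference of -0.24 from 21.8 to 18.4. With a pseudocount of 1, Trim21 (0.41), Cish (0.32) and Socs1 (-0.40) no longer reached the size called, and Usp18 (0.72) did. Trex1 was listed at 0 in both libraries.

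**Figure D4:**
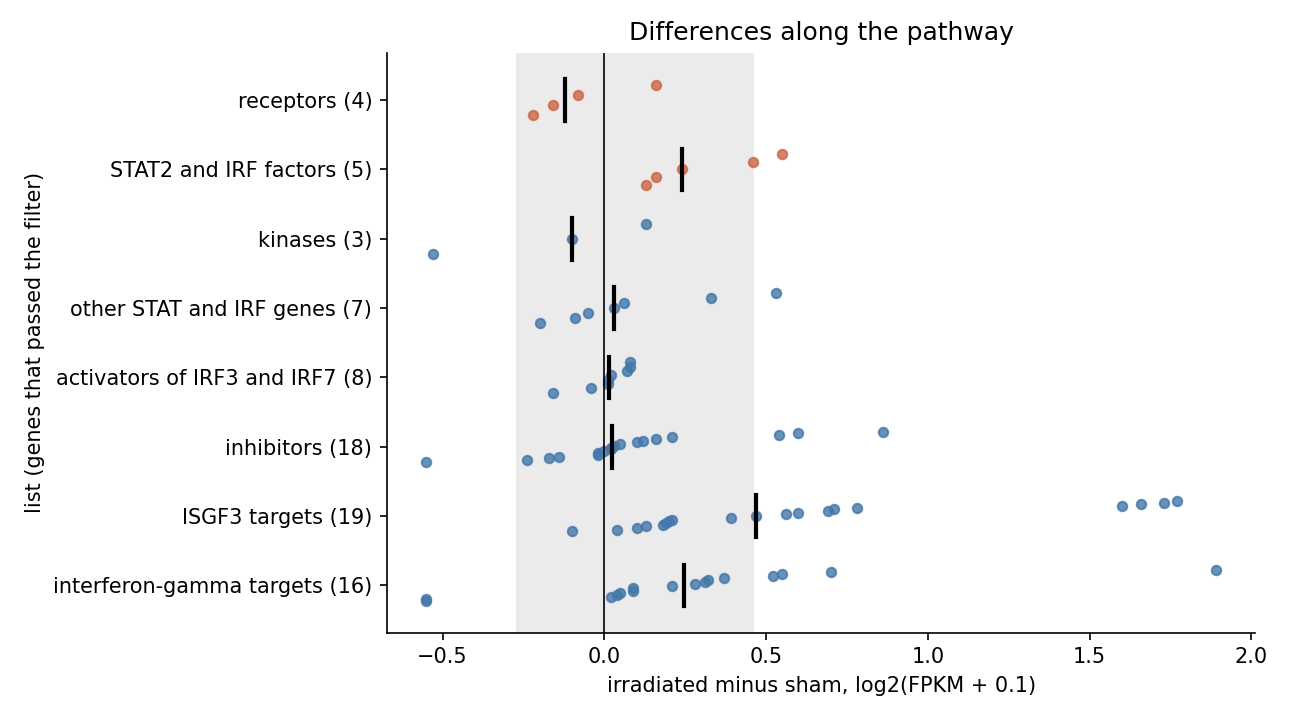
Difference between the libraries on the log2(FPKM + 0.1) scale (horizontal axis) for the receptor and factor genes (orange) and for the other pathway and interferon-induced lists (blue), 1 point per gene that passed the filter, with black bars for medians and the 5th to 95th percentile of all genes in grey. Medians are -0.12 for the receptors, 0.24 for the factors and 0.47 for the ISGF3 targets.

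Lists of known targets of ISGF3 and of interferon-gamma are set beside the 9 genes. Whether the 9 genes drove these targets was not tested, and the lists were written with earlier results of the data known. Of 23 targets of ISGF3, 19 passed the filter, 18 were higher and 9 were higher by at least 0.5, with a median of 0.47. Over all genes that passed the filter, 53.5% were higher and 4.31% were higher by at least 0.5. Rsad2, the antiviral enzyme viperin, had an FPKM of 1.002 and 3.56, a difference of 1.73, and Cmpk2, an interferon-induced nucleotide kinase, had 0.329 and 1.20, a difference of 1.60. Ifit3 and Ifit1 had differences of 1.77 and 1.66, and both belong to a family of similar genes among which counting can split fragments. Bst2 was the only target that was lower, at -0.10. Each of the 4 that did not pass, Mx1, Mx2, Oas2 and Oas3, had more fragments in the irradiated library, with 61, 69, 95 and 122 against 11, 27, 33 and 58.

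Of 20 targets of interferon-gamma, 16 passed the filter, 14 were higher, 4 were higher and 2 lower by at least 0.5, and the median was 0.245. Over all genes that passed the filter, 53.5% were higher, and 4.31% were higher and 1.44% lower by at least 0.5. The chemokine gene Cxcl10, which type I interferon also induces, had the highest difference, at 1.89. The others higher by at least 0.5 were Cd274 (0.70), Irgm1 (0.55) and Igtp (0.52). Cxcl9, a closer marker of interferon-gamma, had the lowest, at -0.55, equal to that of Socs1, which is in this list too. Which interferon, if any, acted on these genes was not tested. Cxcl9 had an FPKM of 1.16 and 0.759, on 103 and 77 fragments. Ciita, the interferon-gamma-induced activator of class II genes, had 4 and 6 fragments. The median was thus 0.47 for the ISGF3 targets and 0.245 for the interferon-gamma targets. Beside both stand the differences of Irf7 (0.55), Stat2 (0.46), Irf9 (0.24), Irf1 (0.16) and Irf3 (0.13).

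Markers of other cell types moved between the libraries as well, and their part in these results was not tested. Of 12 macrophage markers, 11 passed the filter, 8 were higher and 3 lower, with a median difference of 0.44. By at least 0.5, 5 markers were higher, as were 4.31% of all genes. The 5 markers were C1qa and C1qc (0.80 each), Cd68 (0.71), Mrc1 (0.53) and Mertk (0.52). The lowest of those that passed was Aif1, at -0.14. None of the macrophage markers was at 0. Their summed FPKM was 591.2 in the sham library and 629.9 in the irradiated library. Most of it came from Lyz2, which was lower in the irradiated library, with 442.5 and 410.0 and a difference of -0.11. Without Lyz2 the sum was 148.6 and 219.8.

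Of 7 mesothelial markers found, 6 were higher by at least 0.5, as were 4.31% of all genes. The mesothelial markers had a median of 1.35, from Msln at 2.18 to Wt1 at -0.13. Their summed FPKM was 28.8 and 38.1, most of it from Wt1, and 8.34 and 19.4 without it. Of the 10 fibroblast and progenitor markers, 5 were higher and 5 lower, with a median of -0.16, from Dpp4 at 0.44 to Pi16 at -0.55. Their summed FPKM was 4292 and 3392, and without Col1a1, Col1a2 and Col3a1 it was 711.4 and 697.3. The 6 endothelial markers had a median of 0.165, from Emcn at 0.33 to Cdh5 at -0.02, and a summed FPKM of 39.3 and 42.9.

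The 11 lymphocyte markers summed to an FPKM of 3.68 and 1.99, and 1 passed the filter, Cd3g, at -0.77 on 35 and 22 fragments. Of 7 markers of plasmacytoid dendritic cells, which can make large amounts of type I interferon, 4 passed the filter. These had a median of -0.075, from Runx2 at 0.05 to Cox6a2 at -1.07 on 26 and 13 fragments. The 7 markers had a summed FPKM of 89.0 and 83.6, of which Bst2, also listed as an ISGF3 target, gave 66.62 and 62.15. Of these 7 markers, Siglech and Klk1 had 0 fragments in the sham library and 1 and 0 in the irradiated library. Adipocyte markers summed to 104.5 and 106.0, and the 2 that passed were Pnpla2, at 0.17, and Fabp4, with 96.9 in both libraries.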

How the data were processed

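RNA sequencing of 2 libraries was used, 1 sham and 1 irradiated, assigned by their treatment labels. Per gene, the deposited value is a log2 of the FPKM with 0.1 added, which the authors rounded to 2 decimals. Gene coordinates and lengths stand beside it. The submitters' processing notes name the genome build mm10. For the aligner, counter and filters, nothing is given in the sources used here. The paper describes no RNA sequencing. FPKM depends on all other RNA in a library, and the added 0.1 shrinks the differences of low genes.

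FPKM was recovered by undoing the logarithm, and the library total as the value that made fragments of low genes whole, within 0.12, which held for all 2268 genes checked in the sham library and all 2288 in the irradiated library. Fragments of abundant genes are approximate. The procedure was tested on simulated data. Intervals are exact 95% binomial (Clopper-Pearson) for ratios and exact Poisson for levels. No test was run. Genes named were the 9 genes, the highest and lowest difference of each list among genes that passed the filter, any pathway gene with a difference of at least 0.5, and the highest of the induced genes. Others were named after their values were seen. The 9 genes and all lists were chosen with earlier results of these data known. Of the listed markers, Muc16 was not matched. Some genes of the STAT and IRF families are not reported here. No measure of likeness between genes was computed, since 2 libraries give 1 difference per gene. Alternatives were a pseudocount of 1, no pseudocount, centring, scaling without the 100 most abundant genes, other filters and a threshold of 1. SciPy 1.17.1 gave the intervals and matplotlib 3.10.9 the plots, under Python 3.11.15 with pandas 2.3.3 and numpy 2.4.6.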

Additional observations from a re-analysis of the deposited data

How the results depend on the processing

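No paired analysis was possible because the conditions had a single library each, which also left no replicate to leave out. Across a pseudocount of 1, no pseudocount, centring on the median difference (a shift of 0.02) and scaling without the 100 most abundant genes (a shift of -0.016), all 36 values of the 9 genes kept their sign and stayed within their counting interval. The count of 9 genes higher in the irradiated library was 6 under each of these and under both filters, and their median ranged from 0.14 to 0.16. A pseudocount cannot change a sign, and all 9 genes had an FPKM above 5 in both libraries. The pseudocounts and the filters therefore could not change that count, so only centring and scaling could have done so. With a threshold of 1, 0 of the 9 genes, 0 of 37 other pathway genes and 5 of 35 interferon-induced genes that passed the filter were called. These stand in place of 1, 6 and 15, since the threshold sets the count. Over all genes that passed the filter, a difference of 1 was reached by 1.16% and one of 0.5 by 5.75%. For the other pathway genes, the count was 2 with a pseudocount of 1 (Usp18 and Jak2, without Irf8, Trim21, Cish and Socs1) and 2 with an FPKM of at least 5. For the interferon-induced genes it was 10 with a pseudocount of 1 and 8 with an FPKM of at least 5. Fewer genes are counted under that filter. Depth limits the interferon genes, of which 1 had any fragment, and also Irf3 and Ifngr1, whose intervals include 0.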

Other observations

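The ISRE was also counted in the promoter windows of the interferon-induced lists, after the values had been seen. Since ISGF3 binds this element, a higher share among its listed targets than among all genes was built into the list. Of 16 ISGF3 targets with a RefSeq window, 7 held the element (Ifit1, Ifit3, Isg15, Oas1a, Oas3, Rsad2 and Bst2), or 43.8%, against 3.46% of all genes. The 6 of these that passed the filter ranged from -0.10 for Bst2 to 1.77 for Ifit3, with a median difference of 1.185, and the 9 without a match ranged from 0.04 for Ifi35 to 1.60 for Cmpk2, with a median of 0.39. Of 15 interferon-gamma targets with a window, 9 held the element, or 60.0%, also against 3.46% of all genes. Differences of these 9 ranged from -0.55 for Socs1 to 1.89 for Cxcl10, with a median of 0.31. The 6 without it had a median of 0.07. Both groups spanned wide and overlapping ranges in each list, and no test was run.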
